A study of Mus musculus with 8 samples.

Results

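The genes described here are 10 members of the BCL2 family, measured by RNA sequencing in mouse splenic B cells. They were chosen by symbol, under a rule that uses no measured value but was set with earlier results of these data known. They are Bcl2, Bcl2l1, Mcl1, Bcl2a1b, Bbc3, Pmaip1, Bcl2l11, Bid, Bax and Bak1, 10 of the 37583 gene identifiers in the counts. All 10 were found and all passed the filter on low counts; the lowest count of any of them in any library was 61, for Bcl2a1b in Naive replicate 3. The 8 libraries fall into 3 groups of B cells from the spleens of C57BL/6 mice (strain B6). The TLR group (2 libraries, which the submitters call Bregs-TLR) spent 3 days in culture with CpG ODN1668, a short synthetic DNA that is a ligand of the receptor TLR9, and was given LPS, PMA and ionomycin as well during the final 5 hours. LPS is a ligand of TLR4, PMA activates protein kinase C and ionomycin is a calcium ionophore. The CpG group (3 libraries, Bregs-CpG) had 3 days of CpG ODN1668 alone. The Naive group (3 libraries) was of naive B cells. TLR against CpG therefore compares the final step on top of the same culture, and CpG against Naive compares cells after the 3-day CpG culture with naive cells. The labels mention no transgene or deletion and leave unsaid whether libraries of a group are from different animals. The p-values therefore measure the spread between these libraries, which may be technical.

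The BCL2 family decides whether the outer mitochondrial membrane stays closed or is opened, which releases cytochrome c and starts the caspase cascade. Pro-survival members (BCL-2, BCL-XL, MCL-1 and A1) hold the effectors BAX and BAK in check. BH3-only members (PUMA, NOXA, BIM and BID among these genes) bind the pro-survival proteins or activate the effectors. In B cells BCL-2, MCL-1 and A1 are known for survival at different stages of maturation and activation, and BIM for the removal of autoreactive and surplus cells. Much of the control of these proteins is by their stability, phosphorylation and binding, which RNA does not show, and gene-level counts do not separate isoforms such as the long and short forms of Bcl2l1.

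The promoters below are shown for the members whose RNA differed at the final step (Mcl1 and Bcl2l1), for the BH3-only genes Bcl2l11 and Bbc3, which both hold a FoxO site, and for Bcl2a1b and its near-identical neighbours, which a read cannot always tell apart. They were taken from RefSeq (GRCm38.p6), each from 250 bases before the annotated transcription start to 50 bases after it, written 5′ to 3′ on the gene's own strand. Of the 10 members, 9 had an entry in this table. Capitals mark the motifs named in the next paragraph.
Mcl1, chr3:95658471-95658770, plus strand: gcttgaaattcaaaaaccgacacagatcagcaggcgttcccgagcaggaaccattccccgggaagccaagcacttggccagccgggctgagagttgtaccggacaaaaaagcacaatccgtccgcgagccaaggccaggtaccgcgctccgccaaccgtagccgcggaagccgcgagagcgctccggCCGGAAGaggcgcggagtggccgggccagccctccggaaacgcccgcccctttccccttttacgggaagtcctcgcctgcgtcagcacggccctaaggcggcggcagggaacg
Bcl2l1 (1 of its 3 windows), chr2:152830668-152830967, minus strand: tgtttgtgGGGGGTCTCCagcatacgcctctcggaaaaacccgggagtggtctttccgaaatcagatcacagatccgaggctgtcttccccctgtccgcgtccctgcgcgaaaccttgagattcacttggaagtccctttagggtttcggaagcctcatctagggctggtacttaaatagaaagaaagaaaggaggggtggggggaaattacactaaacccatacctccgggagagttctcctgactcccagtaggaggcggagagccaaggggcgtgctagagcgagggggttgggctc
Bcl2l11 (1 of its 2 windows), chr2:128125788-128126087, plus strand: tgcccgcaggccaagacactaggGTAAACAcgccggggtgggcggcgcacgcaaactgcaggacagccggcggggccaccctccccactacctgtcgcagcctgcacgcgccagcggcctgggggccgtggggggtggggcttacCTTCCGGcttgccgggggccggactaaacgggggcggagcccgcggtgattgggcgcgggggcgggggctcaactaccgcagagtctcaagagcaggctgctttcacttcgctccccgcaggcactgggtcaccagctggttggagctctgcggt
Bbc3 (1 of its 3 windows), chr7:16310011-16310310, plus strand: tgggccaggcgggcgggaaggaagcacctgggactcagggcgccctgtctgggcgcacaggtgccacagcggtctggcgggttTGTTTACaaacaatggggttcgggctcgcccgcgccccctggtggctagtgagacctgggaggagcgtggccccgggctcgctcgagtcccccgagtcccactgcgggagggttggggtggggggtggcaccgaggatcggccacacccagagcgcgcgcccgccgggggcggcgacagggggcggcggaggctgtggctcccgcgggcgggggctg
Bcl2a1b, chr9:89199023-89199322, plus strand: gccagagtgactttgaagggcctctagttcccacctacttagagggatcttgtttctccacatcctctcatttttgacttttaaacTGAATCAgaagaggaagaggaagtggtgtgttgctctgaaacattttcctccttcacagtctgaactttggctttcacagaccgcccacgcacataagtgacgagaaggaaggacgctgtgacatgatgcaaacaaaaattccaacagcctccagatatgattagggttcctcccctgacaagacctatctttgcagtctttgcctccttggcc
Bcl2a1a, chr9:88956670-88956969, plus strand: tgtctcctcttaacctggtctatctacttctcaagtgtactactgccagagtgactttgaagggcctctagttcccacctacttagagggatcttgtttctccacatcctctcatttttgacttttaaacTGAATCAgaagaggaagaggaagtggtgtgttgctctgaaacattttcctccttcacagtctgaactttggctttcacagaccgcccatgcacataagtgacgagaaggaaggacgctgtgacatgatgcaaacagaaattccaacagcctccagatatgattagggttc
Bcl2a1d, chr9:88731801-88732100, minus strand: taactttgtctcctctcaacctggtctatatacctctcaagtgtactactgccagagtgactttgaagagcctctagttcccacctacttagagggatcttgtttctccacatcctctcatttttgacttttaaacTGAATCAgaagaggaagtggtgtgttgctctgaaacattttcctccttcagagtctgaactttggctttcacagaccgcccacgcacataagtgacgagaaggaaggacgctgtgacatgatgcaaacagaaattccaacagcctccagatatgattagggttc

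Motifs were searched on both strands in all 32851 windows of this kind. The FoxO site GTAAACA, present in 3.65% of windows, was found in the Bcl2l11 and Bbc3 windows printed above, on the opposite strand in Bbc3. Those windows were printed because they hold it, and no other window of the members did. Several genes, some with several windows, were searched, so the share for a single window is no test of these matches. An ETS site, CCGGAAG, present in 8.86% of windows, was found in the Mcl1 and Bcl2l11 windows, on the opposite strand in Bcl2l11, and in another window of Bcl2l1. An NF-kB site was found in the Bcl2l1 window printed above, on the printed strand, and in another window of Bbc3, against 8.46% of all windows. The AP-1 site TGANTCA, present in 7.81% of windows, stood in the windows of Bcl2a1b, Bcl2a1a and Bcl2a1d. The Bcl2a1a window matched that of Bcl2a1b at 99.2% of 256 aligned bases, and the Bcl2a1d window at 98.8% of 250 aligned bases. Each match is a run of letters in the window; binding was not measured.

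The deposited gene counts summed to between 15804311 and 20069272 per library, so that 1 count was worth 0.0498 to 0.0633 CPM. CPM, the unit of level used below, is the count of a gene scaled to the size of its library, here with edgeR's TMM factors, which makes each value a share of that library's RNA: in bulk samples, fewer cells of a type and less RNA per cell cannot be told apart. Replicate 1 of each group carries the library prefix RCa1 and the rest carry RCa18. Reads with no unique position made up 37.5% to 50.2% of the lines in the RCa1 libraries and 14.7% to 21.5% in the RCa18 libraries. All 8 B cell markers examined were detected in every group, and their summed level was 2952 and 3149 CPM in the TLR libraries, against 9317 to 13712 CPM in the CpG libraries and 10883 to 11529 CPM in the Naive libraries. Ms4a1, which encodes the B cell antigen CD20, was at 52.4 and 76.6 CPM in the TLR libraries, against 1480 to 2485.5 CPM in the CpG libraries, and all 8 markers were called lower for TLR against CpG. Macrophage and monocyte markers summed to 12.7 and 18.2 CPM in the TLR libraries (Cd163 at 0) and to 17.2 to 37.5 CPM in the CpG libraries, against 1328, 321.7 and 172 CPM in Naive replicates 1 to 3. All 8 neutrophil markers were at 0 in the TLR libraries, and their summed level was 0 to 0.427 CPM in the CpG libraries and 0.601 to 17.0 CPM in the Naive libraries. Natural killer cell markers summed to 1.36 and 1.65 CPM in the TLR libraries (Ncr1, Nkg7 and Gzma at 0) and to 1.68 to 2.78 CPM in the CpG libraries, against 14.8 to 73.0 CPM in the Naive libraries. T cell markers summed to 22.7 and 24.1 CPM in TLR (Cd3e and Cd4 at 0), 40.8 to 67.6 CPM in CpG (Cd8a at 0) and 57.6 to 77.3 CPM in Naive. Most of that sum was Lck, at 21.9 and 22.5 CPM in TLR, 40.3 to 66.8 CPM in CpG and 51.9 to 57.6 CPM in Naive, while the other 7 T cell markers were all called lower for CpG against Naive, with a median of -3.39 over the 8. Dendritic cell markers summed to 4.30 and 6.92 CPM in TLR (Clec9a and Siglech at 0), 12.2 to 41.6 CPM in CpG and 24.6 to 61.4 CPM in Naive. Flt3 made up most of the CpG sum, at 9.03, 38.7 and 13.7 CPM, and 4 of the 6 (Itgax, Zbtb46, Clec9a and Siglech) were called lower for CpG against Naive. Erythroid markers summed to 0.906 and 0.258 CPM in TLR, 0.321 to 0.967 CPM in CpG and 2.505 to 40.7 CPM in Naive. The part of these markers in the results below was not tested.

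At the final step of LPS, PMA and ionomycin, 2 of the 4 pro-survival members differed, in opposite directions. Most of the family was higher after the 3-day CpG culture. At the final step Mcl1 fell 2.42-fold and Bcl2l1 rose 3.65-fold, and the other 8 members did not pass the test. In the 3-day culture 8 members rose, Bid fell and Mcl1 did not pass. A change was called where the p of edgeR's quasi-likelihood test, adjusted over 13964 genes, was below 0.05. At the final step 2 of 10 members were called, against a background of 38.8% of all tested genes (19.0% higher and 19.8% lower). In the culture 9 of 10 members were called, against 45.5% of all tested genes (23.5% higher and 21.9% lower). Over both steps, TLR against Naive, 9 of 10 were called (8 higher, Mcl1 lower and Bid not called), against 61.2% of all tested genes (31.6% higher and 29.7% lower). The median log2 fold change of the members was 0.29 for TLR against CpG, 0.88 for CpG against Naive and 1.05 for TLR against Naive, beside -0.02, 0.01 and 0.01 over all tested genes. The libraries of the compared groups did not overlap for 4 of 10 members for TLR against CpG, beside 59.3% of all tested genes. They did not overlap for 9 of 10 for CpG against Naive, beside 56.0%, and for 9 of 10 for TLR against Naive, beside 78.1%. The comparisons share the CpG or Naive libraries and are not independent of each other.

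**Figure D1:**
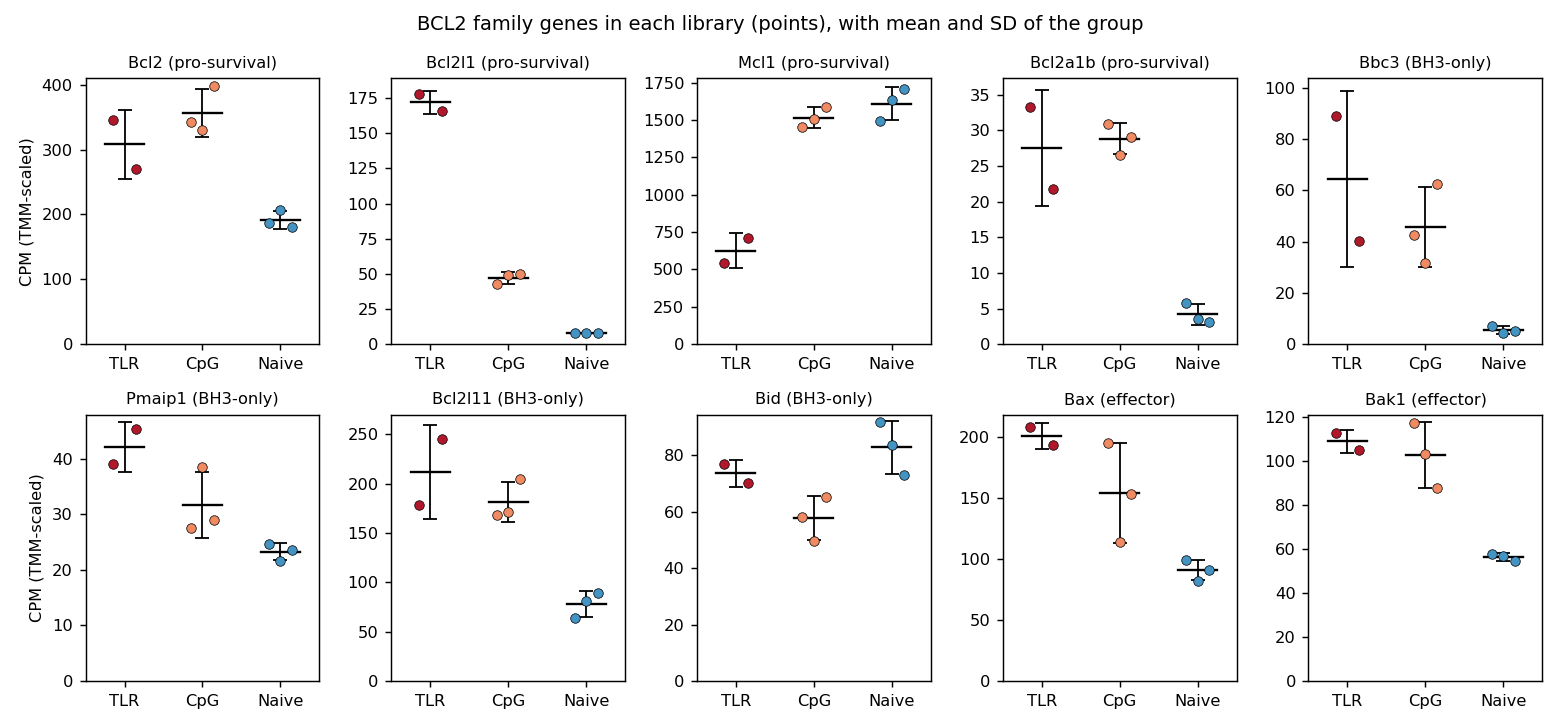
Level of each of the 10 genes in CPM (vertical axis, from 0) in the TLR, CpG and Naive libraries; each point is a library, and the lines show the mean and SD of the group. Mcl1 sits lower in both TLR libraries than in any other library, and Bcl2l1 is highest in the TLR libraries, intermediate in the CpG libraries and lowest in the Naive libraries, with no overlap.

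Among the pro-survival members, Mcl1 (Ensembl gene ENSMUSG00000038612; chromosome 3, 95658788 to 95663176, plus strand, GRCm38) encodes a short-lived protein that mature B cells are known to need. Its level was 543 and 711 CPM in the TLR libraries, 1451, 1503.5 and 1589.5 CPM in the CpG libraries, and 1491, 1632 and 1704 CPM in the Naive libraries. Both TLR libraries lay below all 6 others, and the CpG and Naive libraries overlapped. The TLR group averaged 627 ± 119 CPM (SD, n = 2), against 1515 ± 70.1 CPM in the CpG group (SD, n = 3) and 1609 ± 109 CPM in the Naive group (SD, n = 3). The log2 fold change for TLR against CpG was -1.27 ± 0.156 (SE; edgeR adjusted p = 0.000197). It was called under all 14 alternative settings, at -1.49 to -1.09. Within prefixes the difference was -1.42 in RCa1 and -1.12 in RCa18. For CpG against Naive the log2 fold change was -0.09 ± 0.134, with a 95% interval of -0.39 to 0.21 (edgeR adjusted p = 0.622).

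Bcl2l1 (ENSMUSG00000007659; chromosome 2, 152780668 to 152831728, minus strand) encodes BCL-XL and, from a shorter splice form, the death-promoting BCL-XS. It reached 178 and 166 CPM in the TLR libraries, against 42.4, 49.0 and 49.9 CPM in the CpG libraries and 8.18, 7.86 and 8.25 CPM in the Naive libraries. The 3 groups were fully separate, with the TLR libraries highest and the Naive libraries lowest. The log2 fold change was 1.87 ± 0.113 for TLR against CpG (edgeR adjusted p = 5.84e-06). It was 2.54 ± 0.113 for CpG against Naive (edgeR adjusted p = 5.78e-07), a 5.82-fold rise. TLR against Naive gave 4.41 ± 0.124 (edgeR adjusted p = 9.41e-08), a 21.2-fold rise and the largest change of the 10 members in that comparison. All alternative settings called it in each of the 3 comparisons. Within prefixes the TLR minus CpG difference was 2.07 in RCa1 and 1.75 in RCa18.

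Bcl2 (ENSMUSG00000057329; chromosome 1, 106538178 to 106714274, minus strand), the founding member of the family rose in the 3-day culture and did not pass the test at the final step. It measured 346 and 270.4 CPM in the TLR libraries, 342, 329.6 and 399 CPM in the CpG libraries, and 187, 207 and 181 CPM in the Naive libraries. Every TLR and CpG library lay above every Naive library, and the TLR and CpG libraries overlapped. For CpG against Naive the log2 fold change was 0.90 ± 0.132 (edgeR adjusted p = 0.000511). The final step gave -0.21 ± 0.147, with a 95% interval of -0.54 to 0.12 (edgeR adjusted p = 0.287). Of its exon length, 6.09% is overlapped by the antisense gene D630008O14Rik, which is counted too. The deposited counts ignored strand and how such reads were assigned is not stated, so reads in the overlap may be missing or counted for either gene.

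Bcl2a1b (ENSMUSG00000089929; chromosome 9, 89199209 to 89207827, plus strand) encodes A1, an NF-kB target in many blood cells. Its level was 33.3 and 21.8 CPM in the TLR libraries, 30.9, 26.6 and 29.0 CPM in the CpG libraries, and 5.83, 3.56 and 3.18 CPM in the Naive libraries. The TLR libraries stood on either side of the CpG libraries, and both groups lay above every Naive library. Its log2 fold change was 2.78 ± 0.255 for CpG against Naive (edgeR adjusted p = 3.34e-05), against -0.06 ± 0.258 for TLR against CpG, with a 95% interval of -0.64 to 0.51 (edgeR adjusted p = 0.868). Naive replicate 1, which was the highest Naive library for this gene, also had the highest macrophage marker sum. It is also the Naive library with prefix RCa1, in which 37.5% of lines had no unique position. These features cannot be told apart here, and their part was not tested. The count is uncertain as a measure of A1: 79.2% of the 50-base windows of the Bcl2a1b transcript also occur in transcripts of other genes, and its sequence is 98.2% identical to Bcl2a1a and 99.1% to Bcl2a1d. The identifiers of those 2 genes were not matched in the files.

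The BH3-only members rose in the culture with the exception of Bid, and none passed the test at the final step. Bbc3 (ENSMUSG00000002083; chromosome 7, 16308393 to 16318205, plus strand) encodes PUMA, a target of p53 and of FoxO factors. It measured 88.9 and 40.1 CPM in the TLR libraries, 42.8, 31.8 and 62.5 CPM in the CpG libraries, and 7.19, 4.51 and 5.01 CPM in the Naive libraries. The treated libraries were all above the Naive libraries, and TLR replicate 1 was well above TLR replicate 2, which lay within the CpG range. The log2 fold change was 3.04 ± 0.356 for CpG against Naive (edgeR adjusted p = 0.000139), an 8.20-fold rise. TLR against Naive gave 3.53 ± 0.379 (edgeR adjusted p = 3.27e-05); without TLR replicate 1 it was 2.86, and without TLR replicate 2 it was 4.00. The value for TLR against CpG was 0.50 ± 0.351, with a 95% interval of -0.29 to 1.28 (edgeR adjusted p = 0.297). Within prefixes the TLR minus CpG difference had opposite signs, 1.06 in RCa1 and -0.15 in RCa18.

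Bcl2l11 (ENSMUSG00000027381; chromosome 2, 128126038 to 128162547, plus strand) encodes BIM, which binds all pro-survival members. It measured 178 and 246 CPM in the TLR libraries, 168, 171 and 204 CPM in the CpG libraries, and 63.7, 81.4 and 89.2 CPM in the Naive libraries. All treated libraries lay above all Naive libraries, and the TLR and CpG libraries overlapped. Its log2 fold change was 1.21 ± 0.165 for CpG against Naive (edgeR adjusted p = 0.000327). It was 0.23 ± 0.181 for TLR against CpG, with a 95% interval of -0.18 to 0.63 (edgeR adjusted p = 0.355).

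Pmaip1 (ENSMUSG00000024521; chromosome 18, 66458533 to 66465565, plus strand) encodes NOXA, which binds MCL-1 and A1 and is known to promote the degradation of MCL-1. Its level was 39.0 and 45.3 CPM in the TLR libraries, 27.6, 38.6 and 29.0 CPM in the CpG libraries, and 24.6, 21.6 and 23.6 CPM in the Naive libraries. The groups did not overlap, though TLR replicate 1 exceeded CpG replicate 2 by little. TLR against Naive gave a log2 fold change of 0.86 ± 0.167 (edgeR adjusted p = 0.0015). For CpG against Naive it was 0.45 ± 0.152 (edgeR adjusted p = 0.0362), and this call was lost in 7 of 15 alternative settings. Among them, leaving out CpG replicate 2 gave 0.29 (edgeR adjusted p = 0.122), and leaving out Naive replicate 1, 2 or 3 gave adjusted p-values of 0.0578, 0.126 and 0.0908 by edgeR. At the final step it was 0.41 ± 0.167, with a 95% interval of 0.03 to 0.78 before adjustment (edgeR adjusted p = 0.0796), and it was called without CpG replicate 2 (0.57; edgeR adjusted p = 0.0167).

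Bid (ENSMUSG00000004446; chromosome 6, 120891930 to 120916853, minus strand) encodes the BH3-only protein that caspase-8 cuts, which links death receptors to mitochondria. It measured 77.0 and 70.3 CPM in the TLR libraries, 58.2, 49.7 and 65.3 CPM in the CpG libraries, and 91.8, 83.6 and 73.1 CPM in the Naive libraries. The CpG libraries were the lowest, below every TLR and every Naive library, and the TLR and Naive libraries overlapped. Its log2 fold change was -0.52 ± 0.131 for CpG against Naive (edgeR adjusted p = 0.00978). With the RCa18 libraries alone the call was lost (-0.45; edgeR adjusted p = 0.0578). The final step gave 0.35 ± 0.146 (edgeR adjusted p = 0.0846), called only without CpG replicate 3 (0.45; edgeR adjusted p = 0.0441). For TLR against Naive it was -0.17 ± 0.147, with a 95% interval of -0.50 to 0.16 (edgeR adjusted p = 0.336). The opposite-strand gene Bcl2l13 is counted too and overlaps 17.7% of its exon length.

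Both effectors rose in the 3-day culture and did not pass the test at the final step. Bax (ENSMUSG00000003873; chromosome 7, 45461697 to 45466898, minus strand) had 209 and 194 CPM in the TLR libraries, 196, 114 and 153 CPM in the CpG libraries, and 99.3, 82.4 and 91.5 CPM in the Naive libraries. TLR replicate 2 fell just below CpG replicate 1, and every treated library exceeded every Naive library. Its log2 fold change was 0.76 ± 0.177 for CpG against Naive (edgeR adjusted p = 0.00653). At the final step it was 0.38 ± 0.195, with a 95% interval of -0.05 to 0.82 (edgeR adjusted p = 0.15). Leaving out CpG replicate 1 gave 0.59 for that comparison (edgeR adjusted p = 0.0166). Bak1 (ENSMUSG00000057789; chromosome 17, 27019810 to 27029009, minus strand), the other pore-forming effector, had 113 and 105 CPM in the TLR libraries, 118, 103 and 87.6 CPM in the CpG libraries, and 57.8, 57.0 and 54.4 CPM in the Naive libraries. Its TLR and CpG libraries were interleaved and lay above all Naive libraries. For CpG against Naive its log2 fold change was 0.87 ± 0.12 (edgeR adjusted p = 0.000359), and for TLR against CpG it was 0.08 ± 0.132, with a 95% interval of -0.21 to 0.38 (edgeR adjusted p = 0.651). The opposite-strand gene Ggnbp1, also counted, overlaps 18.2% of the exon length of Bak1.

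**Figure D2:**
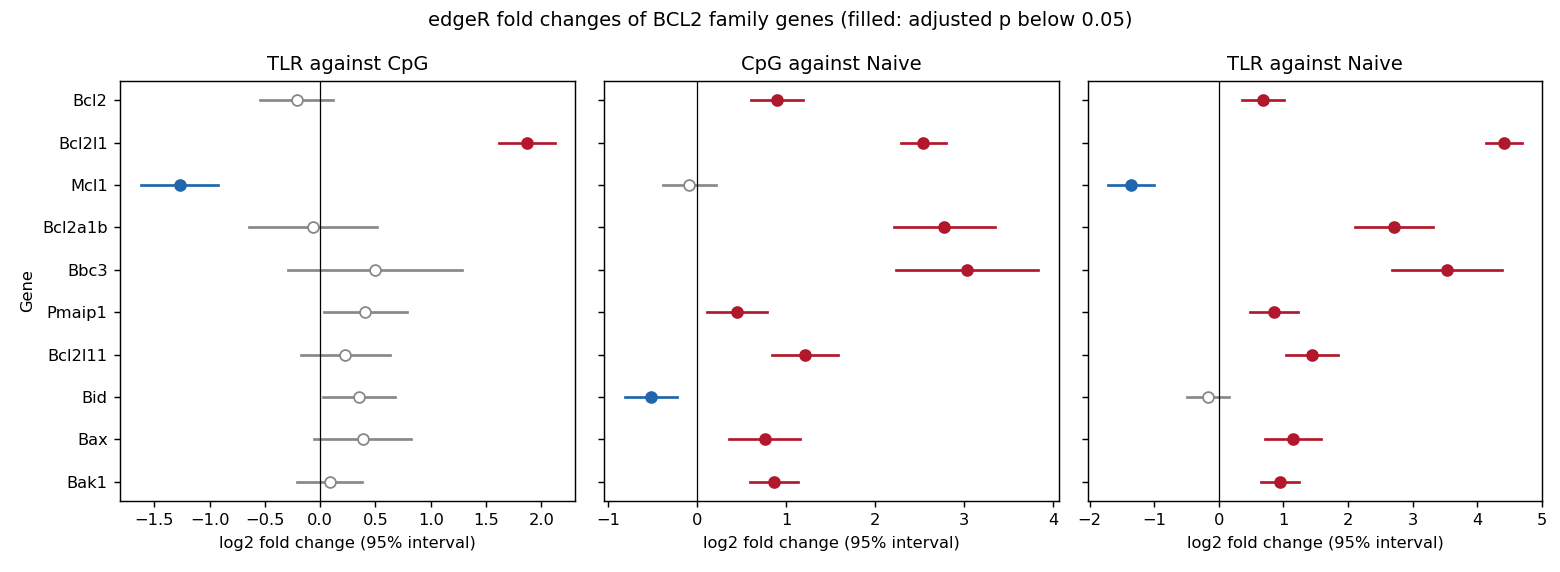
Log2 fold change of each gene by edgeR (horizontal axis; bars show the 95% interval) in each comparison; filled points passed the adjusted p of 0.05. For TLR against CpG the filled points are Bcl2l1 at 1.87 and Mcl1 at -1.27; for CpG against Naive 8 filled points lie above 0 and Bid lies below.

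To compare levels between genes, CPM was divided by the length of the gene's merged exons in kilobases. On this scale Mcl1 was the highest of the 10 in every group, at 183 CPM per kb in TLR, 443 in CpG and 471 in Naive, and Bax came second, at 128, 97.9 and 57.8 CPM per kb. In the TLR libraries Mcl1 had 159 and 208 CPM per kb, against 132 and 123 for Bax. With the length of the longest transcript in place of the merged exons, the TLR means were 183.3 CPM per kb for Mcl1 and 182.9 for Bax, and the order of those 2 was not distinguishable. Bcl2l1 was 4th in TLR, at 37.5 CPM per kb, and last in CpG, at 10.3, and in Naive, at 1.77. In TLR it lay near Bcl2 (33.6), Bcl2a1b (33.7) and Bbc3 (30.4), all within the spread of their 2 libraries. Bid was 9th in TLR and 8th in CpG, and 4th in Naive, at 23.3 CPM per kb, close to Bak1 (23.4) and Bcl2 (20.9). By the longest transcript Bcl2l1 was 3rd in TLR and 9th in CpG and in Naive. In TLR it then stood at 67.0 CPM per kb, above Bcl2 (42.8), Bbc3 (35.6) and Bcl2a1b (33.7). Its closeness to them thus depended on the length used. The level of Bcl2a1b rests on the uncertain count described above.

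The make-up of the pro-survival messages differed between the groups. Mcl1 supplied 57.5% and 69.2% of the summed level of the 4 pro-survival genes in the TLR libraries, against 83.4% to 84.7% in the CpG libraries and 93.7% to 95.1% in the Naive libraries. Bcl2l1 supplied 14.0% and 12.1% in the TLR libraries, 1.82% to 2.06% in the CpG libraries and 0.339% to 0.383% in the Naive libraries. The summed pro-survival level was 276 and 300.3 CPM per kb in TLR, 509 to 555 in CpG and 465 to 524 in Naive, so it was lowest in both TLR libraries and overlapped between CpG and Naive. The sum of the 4 BH3-only members was highest in the TLR libraries, at 99.999 and 85.9 CPM per kb. It was 64.4 to 83.9 in CpG and 42.7 to 46.2 in Naive, with no overlap between any of the groups. Within it, Bid supplied 21.7% and 23.1% in TLR and 21.7% to 24.3% in CpG, against 48.2% to 56.0% in Naive. Bbc3 supplied 41.8% and 22.0% in TLR and 23.2% to 35.1% in CpG, against 4.86% to 7.33% in Naive. The effector sum was 179 and 167 CPM per kb in TLR, 115 to 173 in CpG and 76.0 to 87.0 in Naive. These sums and shares are descriptions, and they depend on the exon lengths used and on the genes included. Those of the pro-survival genes also include the uncertain count of Bcl2a1b. Bmf, a BH3-only gene outside the sum, was at 19.3 and 20.9 CPM in TLR, against 114 to 158 CPM in CpG. Bad, another one outside it, did not pass the test at the final step (edgeR adjusted p = 0.272).

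**Figure D3:**
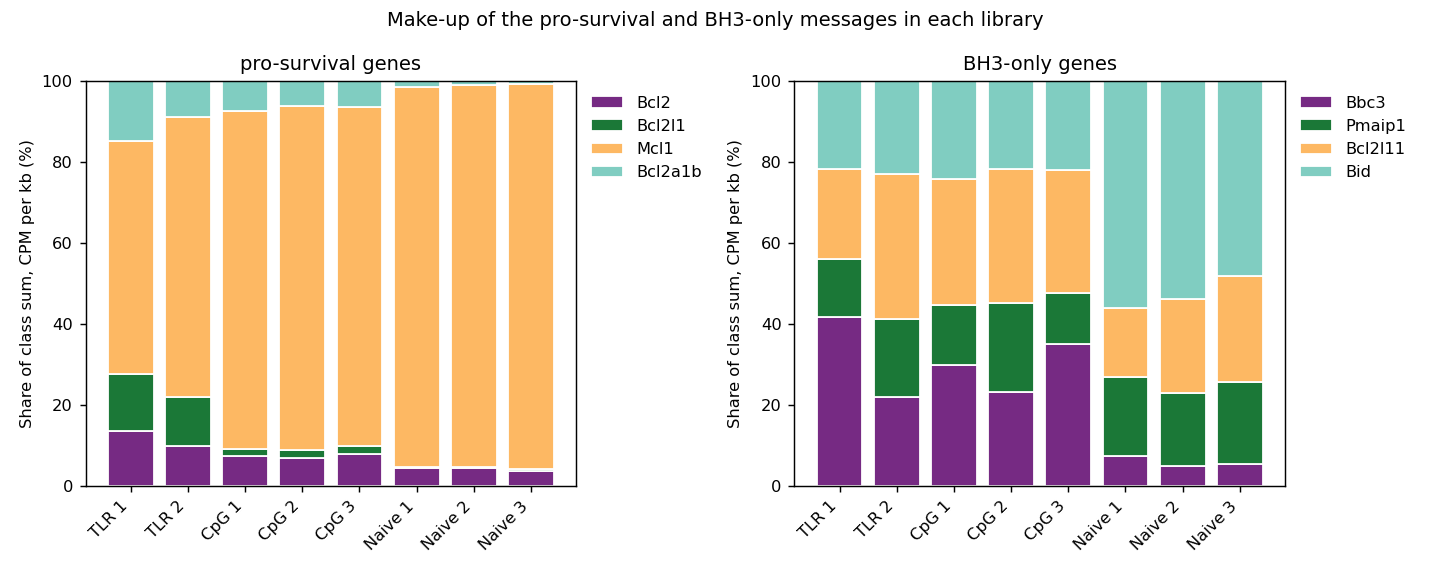
Share of each gene (per cent of the summed CPM per kb) among the 4 pro-survival members and the 4 BH3-only members. Each bar is a library, in the order TLR, CpG, Naive. Mcl1 fills 57.5% and 69.2% of the pro-survival bar in TLR and 93.7% to 95.1% in Naive, and Bid fills 48.2% to 56.0% of the BH3-only bar only in Naive.

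Ratios of a pair of genes within a library do not depend on how that library was scaled. The log2 ratio of Bcl2l1 to Bcl2, per kb, was 0.04 and 0.29 in the TLR libraries, -2.01, -1.75 and -2.001 in the CpG libraries, and -3.51, -3.72 and -3.46 in the Naive libraries. By merged-exon length Bcl2l1 was thus 1.03- and 1.23-fold the level of Bcl2 in TLR, and 0.248- to 0.297-fold in CpG. These folds depend on the lengths used, while the differences between groups do not. By the longest transcript, the means of Bcl2l1 and Bcl2 were 67.0 and 42.8 CPM per kb in TLR. In CpG they were 18.4 and 49.6. The difference of means of this log2 ratio was 2.09 for TLR against CpG, 1.64 for CpG against Naive and 3.73 for TLR against Naive. The ratio of Mcl1 to Pmaip1, whose protein NOXA binds MCL-1, was 3.48 and 3.65 on the log2 scale in TLR, 5.39, 4.96 and 5.45 in CpG, and 5.596, 5.92 and 5.85 in Naive. Its difference of means was -1.71 for TLR against CpG, -0.52 for CpG against Naive and -2.23 for TLR against Naive. For both of these ratios the groups did not overlap in any comparison, and each two-sided exact permutation p was 0.1, the smallest that 2 or 3 libraries a group allow (0.129 after Benjamini-Hochberg adjustment over the 9 ratio tests). The ratio of Bcl2a1b to Bbc3 differed less: it was -0.04 and 0.50 in TLR, 0.91, 1.12 and 0.27 in CpG, and 1.08, 1.04 and 0.72 in Naive. Its difference was -0.54 for TLR against CpG (exact permutation p = 0.3, adjusted 0.337), and -0.18 for CpG against Naive (exact permutation p = 0.7, adjusted 0.7). For TLR against Naive it was -0.71 (exact permutation p = 0.1, adjusted 0.129). The count of Bcl2a1b is uncertain, since 79.2% of its transcript's 50-base windows also occur in other genes, and so is this ratio.

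**Figure D4:**
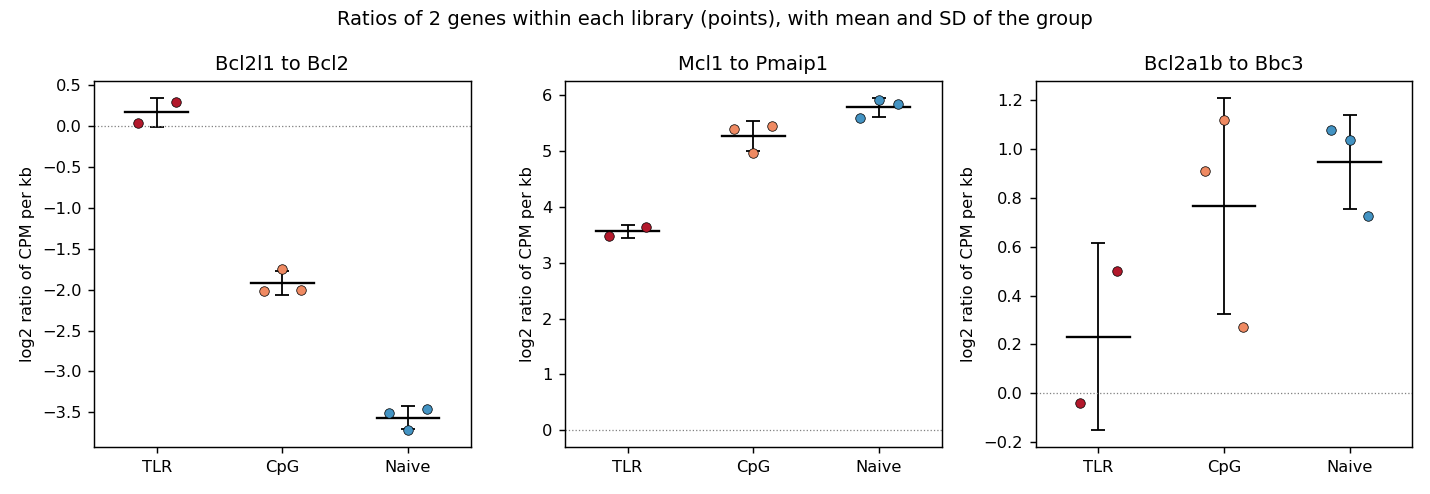
Log2 ratio of CPM per kb of 2 genes within each library (points), with the mean and SD of the TLR, CpG and Naive groups; the dotted line marks equal levels. By merged-exon length the Bcl2l1 to Bcl2 ratio is near 0 in both TLR libraries and at -3.46 or below in all Naive libraries. The Bcl2a1b to Bbc3 ratio overlaps between TLR and CpG. Distances from the dotted line depend on the lengths used.

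Of 16 further BCL2 family genes listed, 11 were tested; Bcl2a1a and Bcl2a1d were not matched in the files, and Bcl2l10, Bok and Hrk did not pass the filter. At the final step 1 was called higher (Bcl2l15) and 2 lower (Bmf and Bnip3l), with a median log2 fold change of -0.09. Over all tested genes 38.8% were called at this step, and 45.5% in the 3-day culture. Bmf, a BH3-only gene whose protein is tethered to the cytoskeleton by a dynein light chain, was at 19.3 and 20.9 CPM in TLR, against 158, 114 and 115 CPM in CpG and 84.6, 121 and 104 CPM in Naive. Its TLR libraries lay far below all others, with a log2 fold change of -2.69 ± 0.208 for TLR against CpG (edgeR adjusted p = 1.55e-05) and 0.32 for CpG against Naive (edgeR adjusted p = 0.136). Bnip3l, a mitophagy receptor, measured 48.6 and 30.5 CPM in TLR, against 76.4, 148 and 89.7 CPM in CpG (log2 fold change -1.41 ± 0.286; edgeR adjusted p = 0.00362). In the 3-day culture 6 of the 11 were called higher (Bcl2l2, Bad, Bik, Bnip3, Bcl2a1c and Bcl2l15) and none lower, with a median of 0.91. Among these, Bcl2l2, which encodes pro-survival BCL-W, changed by 1.07 ± 0.141 on the log2 scale (edgeR adjusted p = 0.000256). Bad, a BH3-only gene that binds BCL-2 and BCL-XL, changed by 0.91 ± 0.142 (edgeR adjusted p = 0.000702). Bad shares exon sequence with the opposite-strand gene Gpr137, and Bcl2l2 with the same-strand gene Gm20521. Both of those genes are counted too, so that reads in the shared part may be missing or counted for either gene.

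Downstream, 5 of 15 apoptosome and caspase genes were called higher at the final step and 5 lower, and 5 higher and 2 lower in the 3-day culture. Diablo, Htra2 and Vdac1 were among those higher at the final step, and those lower were Apaf1, Casp9, Casp2, Casp6 and Dffa. The median log2 fold change was 0.22 for TLR against CpG and 0.18 for CpG against Naive. Of all tested genes, 38.8% were called at the final step and 45.5% in the culture. Apaf1, the scaffold on which caspase-9 is activated, was at 42.8 and 52.7 CPM in TLR, against 90.5, 126 and 132 CPM in CpG and 61.2, 65.9 and 66.3 CPM in Naive. It rose in the culture (0.85 ± 0.151; edgeR adjusted p = 0.00156) and fell at the final step (-1.28 ± 0.176; edgeR adjusted p = 0.000384). Casp9 itself was lower at the final step (-0.84 ± 0.135; edgeR adjusted p = 0.000979) and in the culture (-0.37 ± 0.117; edgeR adjusted p = 0.0262). The culture call of Casp9 was lost without Naive replicate 2 or 3 or CpG replicate 1 or 3, at adjusted p-values of 0.0846, 0.0684, 0.053 and 0.0657. Diablo, which encodes the IAP antagonist SMAC, had 91.8 and 93.6 CPM in TLR, against 51.1, 49.95 and 56.5 CPM in CpG (0.82 ± 0.108; edgeR adjusted p = 0.000304), with an opposite-strand overlap by B3gnt4. Dffa, the inhibitor of the apoptotic nuclease, fell at the final step (-0.68 ± 0.12; edgeR adjusted p = 0.00168).

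Of the 5 inhibitor of apoptosis genes, 1 was lower at the final step (median log2 fold change -0.47). In the culture 1 was higher and 2 lower (median -0.28). The shares called among all tested genes were 38.8% at the final step and 45.5% in the culture. Birc3, which encodes cIAP2, was at 159 and 117 CPM in TLR, against 231, 193 and 213 CPM in CpG and 345, 312.4 and 312.5 CPM in Naive, so that the 3 groups did not overlap. Its log2 fold change was -0.62 ± 0.155 for TLR against CpG (edgeR adjusted p = 0.0102; 0.0952 without TLR replicate 2) and -0.60 ± 0.136 for CpG against Naive (edgeR adjusted p = 0.00547). Birc5, which encodes survivin and is expressed in dividing cells, rose in the culture (2.83 ± 0.338; edgeR adjusted p = 0.000155). Birc2, which encodes cIAP1, was lower in the culture by a small amount (-0.28 ± 0.096; edgeR adjusted p = 0.0401), and leaving out either Naive replicate 2 or 3 or any of the CpG libraries lost that call, at adjusted p-values of 0.0527 to 0.153.

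In the death receptor list, 2 of 13 genes were called higher and none lower at the final step (median log2 fold change -0.01). In the culture 2 were higher and 4 lower (median -0.05). Beside these counts, 38.8% and 45.5% of all tested genes were called at the 2 steps. The 2 genes of the list called at the final step were Tnfrsf10b, a TRAIL receptor (1.67, with edgeR adjusted p = 0.00456), and Cflar. Cflar, which encodes the caspase-8 inhibitor c-FLIP, measured 220.2 and 143 CPM in TLR, against 118, 128 and 133 CPM in CpG (0.52 ± 0.169; edgeR adjusted p = 0.0338). That call rested on TLR replicate 1, without which it was 0.18 (edgeR adjusted p = 0.432). It was also lost without CpG replicate 1, 2 or 3, at adjusted p-values of 0.0716, 0.0655 and 0.0527. Casp8 rose in the culture (0.42 ± 0.111; edgeR adjusted p = 0.0123), while Cyld, a deubiquitinase of the receptor complex, fell (-0.54 ± 0.127; edgeR adjusted p = 0.00669). Tnfsf10, which encodes TRAIL, also fell in the culture (-1.20 ± 0.353; edgeR adjusted p = 0.0196).

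Among genes known to act on the members' transcription, 16 factors were tested. At the final step 9 were called higher and 3 lower (median log2 fold change 0.81). In the culture 3 were higher and 5 lower (median -0.05). Among all tested genes 38.8% were called at the final step and 45.5% in the culture. The 3 factors lower at the final step were Foxo1, Foxo3 and Foxo4. Stat5a, whose protein is known to activate Bcl2l1 in blood cells, was at 706 and 557 CPM in TLR, against 57.5, 72.9 and 60.6 CPM in CpG and 58.5, 51.7 and 51.5 CPM in Naive. It rose at the final step (3.31 ± 0.153; edgeR adjusted p = 2.67e-06) and did not pass in the culture (0.24 ± 0.136; edgeR adjusted p = 0.178). Foxo1, whose protein is known to activate Bcl2l11 and Bbc3, was at 96.0 and 129 CPM in TLR, against 275, 360.2 and 389 CPM in CpG and 334, 378 and 397 CPM in Naive. It fell at the final step (-1.60 ± 0.192, with edgeR adjusted p = 0.000175). Any link of Foxo1 or Stat5a to the members in these cells was not tested. Myc rose at both steps, by 1.54 ± 0.165 for TLR against CpG (edgeR adjusted p = 9.03e-05) and by 0.54 ± 0.15 for CpG against Naive (edgeR adjusted p = 0.0152). The culture call of Myc was lost without Naive replicate 1 (0.0583) or CpG replicate 3 (0.0525), as adjusted p by edgeR. E2f1 rose at both steps too (0.71 ± 0.167 with edgeR adjusted p = 0.00755, and 2.29 ± 0.162 with edgeR adjusted p = 8.25e-06), the first not without TLR replicate 2 (adjusted p = 0.0658).

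Of 15 p53 pathway genes, 8 were called higher and 1 lower in the culture and 5 higher and 4 lower at the final step. Across all tested genes 45.5% were called in the culture and 38.8% at the final step. The median log2 fold change of the p53 pathway genes was 0.12 for TLR against CpG and 0.42 for CpG against Naive. Those higher at the final step were Sesn2, Aen, Perp, Tigar and Pidd1, and those lower were Trp53inp1, Btg2, Sesn1 and Ccng1. Zmat3 rose in the culture (1.44 ± 0.151; edgeR adjusted p = 7.16e-05), as did Phlda3 (4.70 ± 0.48; edgeR adjusted p = 6.04e-05), which was below 1 CPM in every Naive library. Trp53inp1 was at 29.1 and 37.7 CPM in TLR, against 214, 247 and 302 CPM in CpG, and fell at the final step (-2.93 ± 0.188; edgeR adjusted p = 7.36e-06). Btg2, an anti-proliferative p53 target, also fell there (-2.35 ± 0.15; edgeR adjusted p = 7.21e-06).

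Among 14 genes that control the member proteins, 3 were called higher and 1 lower at the final step (median log2 fold change 0.24). In the culture 5 were higher and 2 lower (median 0.03). The background over all tested genes was 38.8% at the final step and 45.5% in the culture. The control genes called at the final step were Pim1, Pim3 and Dynll1, higher, and Gsk3b, lower. The 3 Pim genes encode kinases that phosphorylate BAD. Pim2 was at 925 and 844 CPM in TLR and 731, 622 and 924 CPM in CpG, against 50.1, 43.5 and 48.9 CPM in Naive (4.00 ± 0.172 for CpG against Naive; edgeR adjusted p = 5.44e-07). Pim1 rose at both steps, by 0.67 ± 0.13 at the final step (edgeR adjusted p = 0.00277) and 2.91 ± 0.127 in the culture (edgeR adjusted p = 5.57e-07). Pim3 had 89.9 and 80.5 CPM in TLR, against 24.6, 26.6 and 26.4 CPM in CpG and 45.8, 41.1 and 53.3 CPM in Naive. It was thus lowest in CpG, falling in the culture (-0.85 ± 0.124; edgeR adjusted p = 0.000466) and rising at the final step (1.72 ± 0.135; edgeR adjusted p = 1.64e-05). Dynll2, which encodes the light chain that tethers BMF, rose in the culture (1.21 ± 0.149; edgeR adjusted p = 0.000188).

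**Figure D5:**
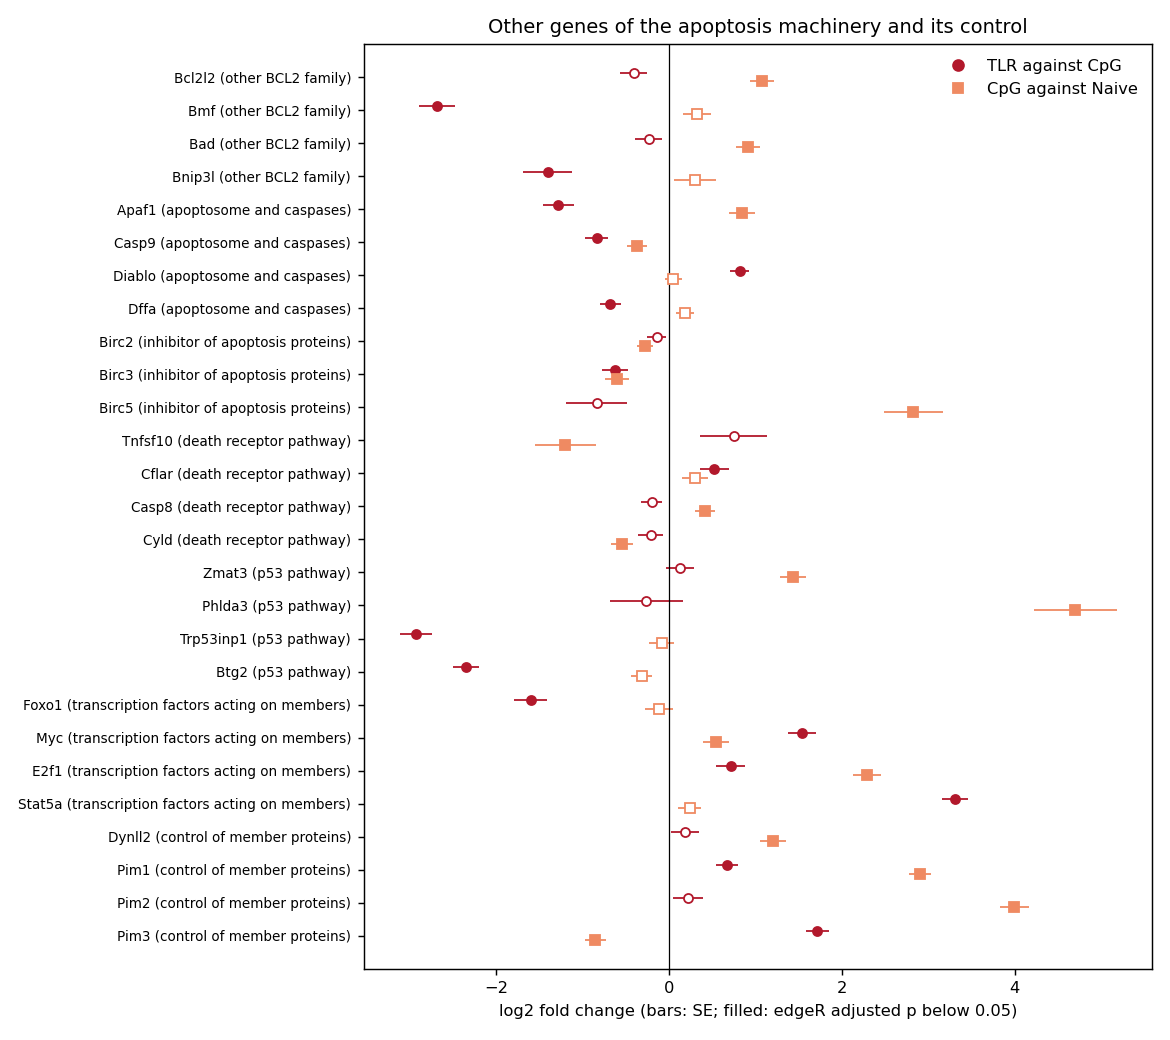
Log2 fold change (horizontal axis, bars show the SE) of 27 genes of the apoptosis machinery and its control, named by a fixed rule from 7 lists; circles are TLR against CpG, squares are CpG against Naive, and filled symbols passed the adjusted p of 0.05. Stat5a lies farthest to the right among the circles at 3.31, and Trp53inp1 farthest to the left at -2.93.

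For each member, the genes with the most similar course over the 8 libraries were found among the 10000 tested genes that averaged 5 CPM or more. The measure was the root mean square difference in log2 CPM after centring each gene on its own mean. For Mcl1 they were Plcg2 (0.096), which encodes the phospholipase of B cell receptor signalling, and Vcpip1 (0.104). Plcg2 averaged 217 CPM in TLR, 577 CPM in CpG and 567 CPM in Naive. Bcl2l1 was most like Slc35g1 (0.177) and Agrn (0.249); Agrn averaged 175 CPM in TLR, 60.3 CPM in CpG and 10.96 CPM in Naive. Bcl2 was most like Ric1 (0.073) and Lpxn (0.077), and Bcl2a1b was most like Tbc1d24 (0.208) and Lacc1 (0.212). Among BH3-only genes the nearest were Slc43a3 and Rgcc for Bbc3 (0.269 and 0.271), Atp2a2 and Bcar3 for Bcl2l11 (0.129 and 0.153), Psma2 and Anp32a for Pmaip1 (0.072 and 0.092), and Rtel1 and Tnrc18 for Bid (0.086 and 0.102). Bax was nearest to Gpaa1 and Nt5m (0.085 and 0.098), and Bak1 to Esd and Eif3k (0.075 and 0.076).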

How the data were processed

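RNA was sequenced from 8 libraries of splenic B cells; per the labels' protocols, polyA RNA was selected and the library kit kept strand information. Each library has 1 deposited table of unscaled read counts by gene, with 37583 identifiers and 5 summary lines, which were left out. The submitters' processing notes name STAR, HTSeq, edgeR and the build mm9 without versions; the deposited tables' names say that counting ignored strand. No annotation release is given in the sources used here. Symbols, positions and exon lengths were looked up by Ensembl identifier in GENCODE M21 (GRCm38), where 32860 identifiers were found; those not found numbered 4723 and held at most 1.01% of any library's counts. No coordinate was converted between builds.

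The fit used edgeR 4.0.16 (R 4.3.3) on the 13964 genes that filterByExpr kept, with TMM scaling and the quasi-likelihood test. All 8 libraries entered 1 model of group means, since TLR has only 2 libraries; the prior count was 0.125 and the common dispersion 0.0421. Benjamini-Hochberg adjustment ran over all genes tested, and 0.05 was the threshold. SEs were derived from the fold change and its F statistic, and 95% intervals are not adjusted. As alternatives, the scaling was changed to RLE factors or plain library size, the tool to DESeq2 1.42.0, and the filter to none or to a mean of 1 CPM. Further alternatives fitted just the groups compared, added the replicate number (as a block) or the library prefix, kept the RCa18 libraries, or dropped each library in turn. The longest transcript as length, and all alternatives for genes other than the members, were added after the data were seen. Ratios of genes were tested by exact two-sided permutation over libraries. Windows of 50 bases were compared between transcripts to find shared sequence, and promoters were aligned with Biopython 1.88. The pipeline was tested on simulated data. Other genes were named by rule: from each list, up to 4 that were called for TLR against CpG or CpG against Naive, taken by smallest p, if they averaged 5 CPM or more. Further genes listed to account for a count were named after their values were seen. The members and lists were chosen with earlier results of these data known. Replicates of a group differed by more than sampling noise, so no library was counted as a duplicate. Results for some listed genes are not reported here.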

Additional observations from a re-analysis of the deposited data

How the results depend on the processing

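Of the members' values under the alternative settings, 414 kept their direction and side of the threshold, 8 lost a call, 3 gained one and 5 reversed; for the other 27 named genes these numbers were 1096, 23, 31 and 11. Every reversed value came from a comparison that was not called, and the cause of each was not tested.

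The call of Bid was lost with the RCa18 libraries alone, which left 0 members called lower for CpG against Naive. That setting, like leaving out a TLR library, keeps 1 TLR library, whose spread is assumed to be like that of the other groups. Leaving out each library in turn gave 1 to 2 members called higher and 3516 to 5625 called genes for TLR against CpG (5417 with all libraries, 3516 without TLR replicate 1). The log2 ratio of Bcl2a1b to Bbc3 for CpG against Naive then ran from -0.356 to 0.0682, positive without CpG replicate 3. Log2 fold changes for TLR against CpG with 1 library left out ran from -0.188 (without TLR replicate 1) to 0.954 for Bbc3, -0.0187 (without CpG replicate 3) to 0.196 for Bak1, -0.400 to 0.203 (without TLR replicate 2) for Bcl2a1b, and -0.0288 (without TLR replicate 2) to 0.440 for Bcl2l11. With the RCa18 libraries alone Bbc3 was at -0.235.

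Among the other genes, the same ranges for CpG against Naive were -0.0233 (without CpG replicate 2) to 0.485 for Bnip3l, -0.00604 (without CpG replicate 3) to 0.0957 for Diablo, -0.224 to 0.0310 (without CpG replicate 1) for Trp53inp1 and -0.219 to 0.0235 (without CpG replicate 1) for Foxo1. For TLR against CpG they were -0.00185 (without TLR replicate 2) to 1.24 for Tnfsf10, -0.00394 (without CpG replicate 2) to 0.2505 for Zmat3, and -0.573 to 0.247 (without CpG replicate 3) for Phlda3. Tnfsf10 ran from -1.20 to 0.0395 (without TLR replicate 1) for TLR against Naive. With the RCa18 libraries alone, Trp53inp1 was at 0.00471 for CpG against Naive and Tnfsf10 at 0.0693 for TLR against Naive, and with the replicate block Phlda3 was at 0.16 for TLR against CpG.

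Libraries with the same replicate number correlated at 0.004 to 0.325 over 7 pairs in their deviations from the group means. Of 8 libraries, 6 correlated best with their own number, a hint from the data that libraries of a number may share something. Replicate number 1 goes with the prefix RCa1 in every group, so number and prefix cannot be told apart there. The 2 TLR libraries mirror each other (0.325 and -0.325 with CpG replicate 1), so their pairs are not separate evidence. The labels give no such pairing, and not every pair correlated above 0.1, the level set for taking numbers as pairs. With the replicate number as a block, 5541 genes were called for TLR against CpG, 6665 for CpG against Naive and 8602 for TLR against Naive, against 5417, 6347 and 8551 without it, and no call of a member changed.

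With the longest transcript as length, levels in CPM per kb in TLR, CpG and Naive were 42.8, 49.6 and 26.6 for Bcl2, 67.0, 18.4 and 3.15 for Bcl2l1, 42.1, 36.0 and 15.5 for Bcl2l11, 30.5, 23.9 and 34.3 for Bid, and 183, 140 and 82.8 for Bax.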
